A study of Mus musculus with 2 samples.

Results

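The report covers 34 genes of the hepatocyte lineage and of the secreted products of the liver, among 32285 genes counted in single cells of Hepa1-6 tumours grown in mice. Hepa1-6 is a mouse hepatoma cell line. The genes were matched by symbol, and all 34 were found. They comprise 5 transcription factors (Hnf4a, Foxa1, Foxa2, Foxa3, Cebpa), plasma transport proteins (Alb, Ttr, Trf, Rbp4, Hpx, Hp), apolipoproteins (Apoa1, Apoa2, Apob, Apoc3), clotting proteins (Fga, Fgb, Fgg, F2, F10, Proc, Kng1), protease inhibitors and other secreted proteins (Serpina1a, Serpina1b, Ambp, Itih2, Ahsg, Vtn, Hamp) and metabolic enzymes (Cps1, Cyp1a1, Cyp2e1, Tat, Pck1).

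The 2 groups were tumours of mice given CD147-LYTACs and tumours of control mice, with 1 library each. LYTACs are chimaeras that carry a surface protein to the lysosome, here CD147. Treatment was 40 mg/kg, given 4 times at intervals of 3 days, by a route that the labels give as intraperitoneal or intravenous, and tumours were taken on day 12. Cells negative and positive for CD45 were sorted apart and mixed again at 1 to 3, so the share of tumour cells was set by the mixing. The labels state neither what the control mice received, nor the host strain and age, nor how many mice were pooled. With 1 library in each group no test between groups was possible, and intervals on such values cover counting error only.

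In the healthy liver, hepatocytes make most plasma proteins. A network of transcription factors that includes HNF4A, the FOXA factors and C/EBP proteins binds the promoters and enhancers of these genes. Hepatoma cells commonly keep some of these genes active and lose others.

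Promoter sequences are shown for Alb, which encodes albumin and had the highest level of the 34 genes, and for the 3 fibrinogen chain genes, which lie side by side and had very unequal levels. Fgg, Fga and Fgb lie on chromosome 3 within 42140 bases. The gap between Fgg and Fga is 11026 bases and that between Fga and Fgb is 6513 bases, in GENCODE M21 on GRCm38. Each sequence is the stretch of up to 250 bases before the RefSeq start site, on GRCm38.p6 and 5′ to 3′ on the strand of the gene. Fga's stretch ends where GENCODE places the start of the gene. Capitals mark matches, on either strand, to TTGCNNAA, a C/EBP motif. No match of it overlaps another motif searched in the sequences shown.
Alb, chr5:90460620-90460869, plus strand: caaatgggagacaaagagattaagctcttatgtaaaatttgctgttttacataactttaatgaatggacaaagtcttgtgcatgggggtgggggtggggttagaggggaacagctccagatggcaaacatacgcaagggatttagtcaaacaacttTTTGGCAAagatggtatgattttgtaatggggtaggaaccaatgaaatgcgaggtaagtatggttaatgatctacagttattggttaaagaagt
Fgb, chr3:83049864-83050113, minus strand: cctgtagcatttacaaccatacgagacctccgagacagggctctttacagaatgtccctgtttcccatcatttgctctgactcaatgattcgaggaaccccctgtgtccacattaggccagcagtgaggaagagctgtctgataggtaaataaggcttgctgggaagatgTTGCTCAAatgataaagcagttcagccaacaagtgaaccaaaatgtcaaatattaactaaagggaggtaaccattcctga
Fga, chr3:83025903-83026075, plus strand: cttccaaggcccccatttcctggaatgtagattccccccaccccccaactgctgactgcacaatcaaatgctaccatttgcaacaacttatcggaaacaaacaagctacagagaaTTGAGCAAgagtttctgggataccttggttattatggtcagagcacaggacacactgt
Fgg, chr3:83007474-83007723, plus strand: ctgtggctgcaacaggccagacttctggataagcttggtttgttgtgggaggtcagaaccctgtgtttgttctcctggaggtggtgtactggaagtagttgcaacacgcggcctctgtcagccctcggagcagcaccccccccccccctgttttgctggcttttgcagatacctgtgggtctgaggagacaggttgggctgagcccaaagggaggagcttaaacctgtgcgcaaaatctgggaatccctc

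The promoters of Alb, Fgb and Fga each held a C/EBP match, which began at position -94 in Alb, -80 in Fgb and -135 in Fga, counted from the RefSeq start. In Fgg the motif was not found, nor were TGTTTAC, a FOXA motif, or CAAAGTCCA, an HNF4 motif. RefSeq promoters were found for 27 of the 34 genes, with more than 1 start site for some and 32 promoters in all. A gene counted where any of its promoters matched, whereas the shares of mouse promoters count each promoter singly. Of these 27, 10 held the C/EBP motif, against 9.564% of 32851 mouse promoters of the same length. The FOXA motif was found in 3 of 27 (3.166% of all promoters) and the HNF4 motif in 0 (0.3835% of all promoters). Kng1, Apoc3, Hp, Proc, Trf, Ttr and Cps1 had no entry.

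Hepatoma cells were barcodes with at least 500 CPM of Krt8 and Krt18 together, which encode keratins of simple epithelia, and at most 1 UMI of Ptprc, which encodes CD45. A UMI stands for 1 captured RNA molecule, and CPM are UMIs of a gene per 1000000 UMIs. There were 2297 such cells in the CD147-LYTACs library and 1995 in the control library, with medians of 40471 and 44614 UMIs. Barcodes shared by the libraries numbered 24, of which 3 were hepatoma barcodes. Markers fitted the label in part: Afp, which encodes alpha-fetoprotein, stood at 203 CPM in CD147-LYTACs and 210 in control hepatoma cells, and Epcam, an epithelial adhesion molecule, at 173 and 126. The oncofetal genes Gpc3 and H19 were near absent, with 7 and 22 UMIs in CD147-LYTACs cells, against 8 and 0 in control cells. Hepatoma barcodes of the CD147-LYTACs library also held more neutrophil transcripts, with the 5 markers together at 31.3 CPM, against 3.88 in the control library. The 6 monocyte or macrophage markers summed to 17.0 and 12.8, the 6 T cell markers to 7.15 and 6.55, the 4 endothelial markers to 10.9 and 11.6 and the 4 erythroid markers to 3.36 and 4.15. The 6 fibroblast or mural markers summed to 328 and 220, almost all of it Dcn at 323 and 219.

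The tumour cells kept a part of the hepatocyte programme. A few secreted genes and 4 of the 5 transcription factors stood above 10 CPM, while many genes that are abundant in healthy liver were at or near 0. In both libraries 3 of the 34 genes stood at 100 CPM or more, 10 at 10 or more and 14 at 1 or more, whereas 17 lay under 1 in both and 3 had no UMI at all. The 34 genes summed to 2403 CPM in CD147-LYTACs and 2236 in control hepatoma cells. These levels count captured molecules, and the capture of different genes can differ.

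**Figure D1:**
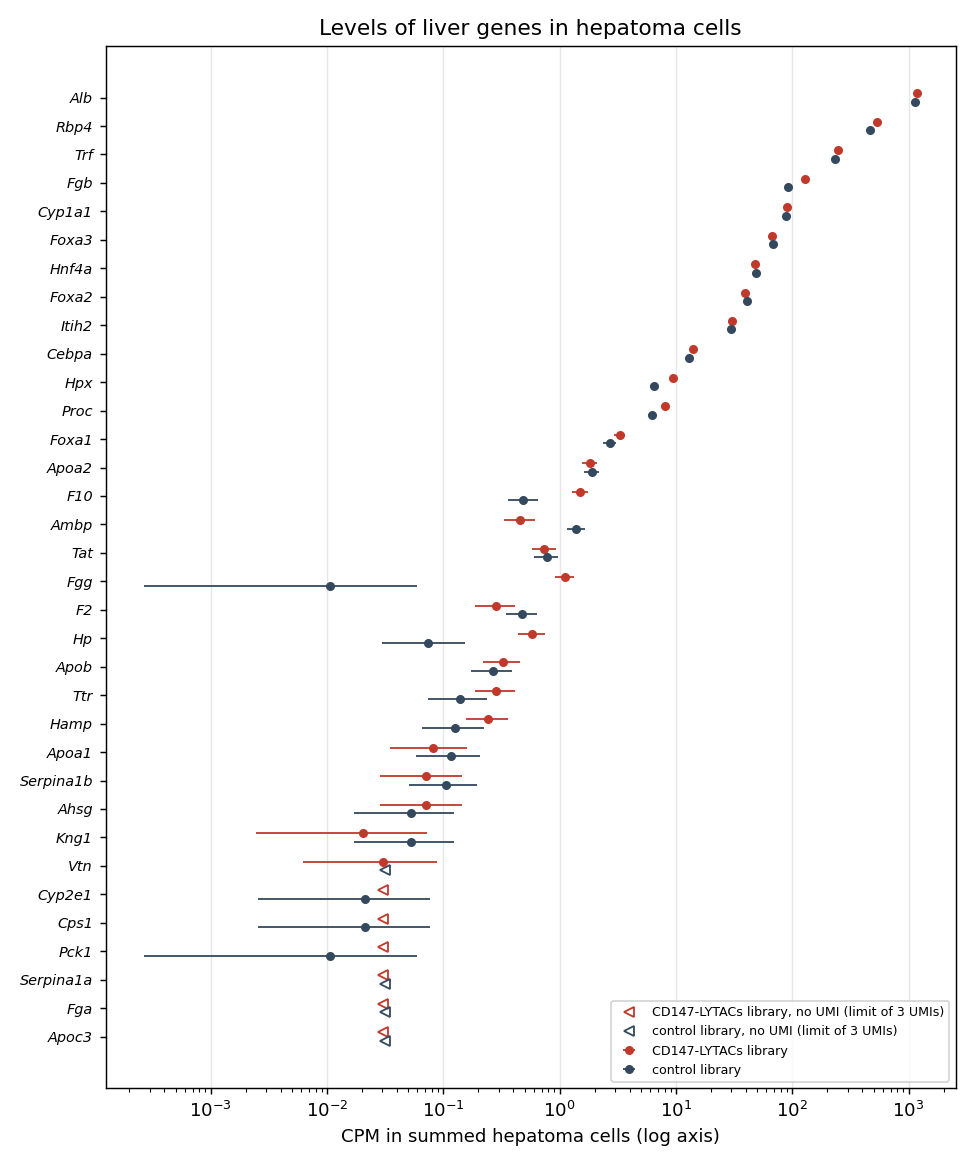
Levels of the 34 liver genes in the summed hepatoma cells of the CD147-LYTACs library (red) and the control library (dark blue), in CPM on a log axis, with exact Poisson 95% intervals that cover counting error only. Open triangles mark genes without a UMI, placed at the limit that 3 UMIs would give. Alb, Rbp4 and Trf stand above 100 in both libraries, and Fga, Apoc3 and Serpina1a have no UMI.

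Among the transcription factors, Foxa3 was at 66.5 CPM in CD147-LYTACs and 67.9 in control cells, and Hnf4a, a nuclear receptor that directs hepatocyte identity, at 47.8 and 48.9. Foxa2 stood at 39.4 and 41.2 and Cebpa, which encodes C/EBP alpha, at 14.0 and 13. Foxa1 was much lower, at 3.29 and 2.71. Thus 4 of the 5 factors exceeded 10 CPM in both libraries.

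Among transport proteins, Alb led with 1173 CPM (1166 to 1180, exact Poisson 95% interval) in CD147-LYTACs and 1132 (1125 to 1139) in control cells. Rbp4, which encodes the plasma carrier of retinol, followed with 539 and 465, and Trf, which encodes the iron carrier transferrin, with 246 and 235. Hpx, which encodes the haem-binding hemopexin, had 9.52 and 6.47. At the other end, Ttr, which encodes transthyretin, a carrier of thyroid hormone and of the retinol carrier, had 28 UMIs in all CD147-LYTACs and 13 in all control hepatoma cells. Rbp4 and its partner Ttr were therefore at very unequal levels.

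Among the apolipoproteins, the 4 members were scarce or undetected, as were some others, whereas Apoe, Apoc4 and Apoc2 were not. Apoa2, of high-density lipoprotein, was at 1.81 CPM in CD147-LYTACs and 1.89 in control cells. Apoa1, the main protein of the same particle, had 8 and 11 UMIs, and Apob, the structural protein of very low-density lipoprotein, had 32 and 25 UMIs. Apoc3, which slows the clearance of triglyceride-rich particles, had none, which allows at most 0.0304 CPM in CD147-LYTACs and 0.0318 in control cells at a limit of 3 UMIs. Outside the 34 genes, Apoe, which directs the uptake of lipoprotein remnants, was at 297 CPM in CD147-LYTACs and 270 in control cells, Apoc4 at 133 and 119, and Apoc2, which activates lipoprotein lipase, at 10.9 and 9.14. Apoe was higher still in Csf1r-gated immune cells, the monocyte and macrophage gate, at 1728 and 2117 CPM. Apoh was at 0.274 CPM in CD147-LYTACs and 0.605 in control hepatoma cells. Apoa4, Apoa5, Apoc1 and Apom had under 50 UMIs over both libraries.

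The fibrinogen chains were unequal. Fgb stood at 128 CPM (126 to 130.5) in CD147-LYTACs and 92.6 (90.7 to 94.5) in control cells. Its neighbour Fga had no UMI in either library. Fgg had 110 UMIs in the CD147-LYTACs and 1 in the control library. Of those 110 UMIs, 65 came from 1 cell and all from 8 cells. Proc, which encodes the anticoagulant protein C, had 8.06 and 6.26 CPM, F2, which encodes prothrombin, had 0.284 and 0.477, and Kng1, which encodes kininogen, 2 and 5 UMIs.

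Of the inhibitors and other secreted proteins, Itih2, a heavy chain that binds hyaluronan, had 30.3 CPM in CD147-LYTACs and 29.9 in control cells. Ambp, which encodes the precursor of alpha-1-microglobulin and bikunin, had 0.456 and 1.39. The rest were close to 0. Serpina1b, an antitrypsin gene that belongs to a family of near-identical copies and is therefore uncertain in counting, had 7 and 10 UMIs, and Serpina1a had none. Ahsg (fetuin-A) had 7 and 5 UMIs, Hamp, which encodes the iron hormone hepcidin, 24 and 12, and Vtn (vitronectin) 3 and 0.

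Among enzymes, Cyp1a1, a cytochrome P450 induced through the aryl hydrocarbon receptor, was at 90.6 CPM in CD147-LYTACs and 88.5 in control cells. Tat, a tyrosine-degrading enzyme, was at 0.739 and 0.775. The urea cycle enzyme Cps1 had 0 and 2 UMIs, Cyp2e1, a cytochrome P450 that oxidises ethanol, 0 and 2, and Pck1 of gluconeogenesis 0 and 1. Cyp1a1 was thus the only one of the 5 enzymes above 1 CPM.

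Levels varied widely between cells. To limit the part of depth, this spread was described over hepatoma cells with at least 20000 UMIs, of which there were 1760 in the CD147-LYTACs and 1642 in the control library. A UMI of Alb was present in 96.8% and 97.5% of them. The middle 90% of cells spanned 27.5 to 3591 CPM of Alb in CD147-LYTACs cells and 31.7 to 3332 in control cells, around medians of 798 and 786. Rbp4 was more even, at 85.1 to 1343 around 415 in CD147-LYTACs cells and 54.7 to 1149 around 354 in control cells. Trf was found in 83.9% and 79.8% of cells and Fgb in 79.1% and 73.9%.

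Cyp1a1 was uneven in another way. It went undetected in most of these deep cells, with a UMI in 45.5% of CD147-LYTACs and 43.5% of control cells, yet its 95th percentile reached 561 and 525 CPM. Hnf4a was seen in 71.6% and 68.4% of cells, Foxa2 in 70.1% and 72.7%, Foxa3 in 82.5% and 82.3% and Cebpa in 46.3% and 44.4%. Some scarce genes came from a handful of cells. The 1 control cell with most Ambp held 59 of 131 UMIs, and the 1 CD147-LYTACs cell with most Hp, which encodes the haemoglobin-binding haptoglobin, held 20 of 57.

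**Figure D2:**
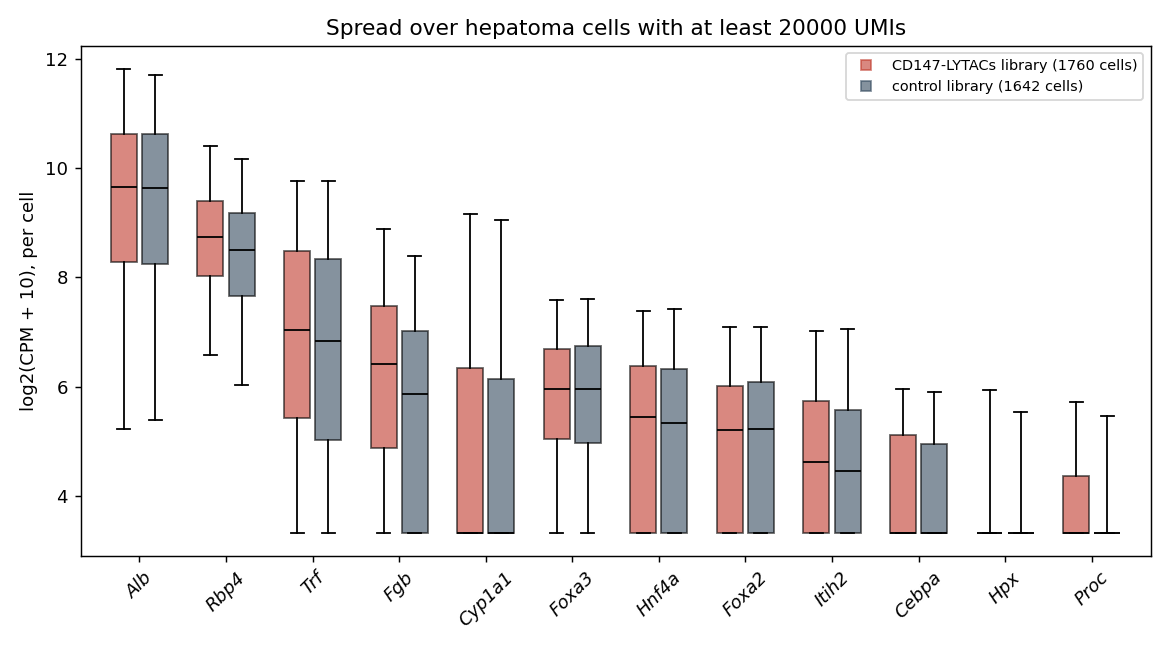
Spread of 12 liver genes over hepatoma cells with at least 20000 UMIs, as log2 of CPM plus 10, in the CD147-LYTACs library (red, 1760 cells) and the control library (grey, 1642 cells). Boxes span the quartiles with the median as a line and whiskers reach the 5th and 95th percentiles. Alb and Trf span the widest ranges among the abundant genes, and Cyp1a1 has a median at the floor with upper whiskers above those of Fgb.

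Over the same cells the secreted genes varied together, as a description with no test, since all points of a library share it and share cell depth. Alb and Trf had the closest relation, with a Spearman's rho of 0.72 over 1760 CD147-LYTACs cells and 0.71 over 1642 control cells. Among the 66 pairs of the 12 members compared, Rbp4 and Itih2 followed at 0.46 and 0.48. Afp, which encodes alpha-fetoprotein and is not among the 34, had rho of 0.50 and 0.48 with Alb and of 0.48 and 0.47 with Trf. Over all 66 pairs of 12 genes the median was 0.20 and 0.24. Hnf4a had rho of 0.34 and 0.33 with Trf. Foxa2 stood outside this pattern, with rho between -0.06 and 0.11 to the other 11 genes in CD147-LYTACs and between -0.08 and 0.05 in control cells, and Cebpa likewise, between -0.01 and 0.09 and between -0.03 and 0.07. Foxa2 was nearly as abundant as Hnf4a. Cebpa had a UMI in 46.3% of these CD147-LYTACs cells and 44.4% of these control cells. Hpx, at 19.8% and 14.9%, and Proc, at 26.4% and 20.2%, were seen in fewer cells. Their median rho to the other 11 genes was 0.29 and 0.25 for Hpx and 0.22 and 0.20 for Proc. That of Cebpa was 0.06 and 0.02. The part of abundance in these values of rho was not tested. Within non-cycling cells alone, Alb and Trf had rho of 0.73 over 1261 CD147-LYTACs cells and 0.71 over 1237 control cells.

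**Figure D3:**
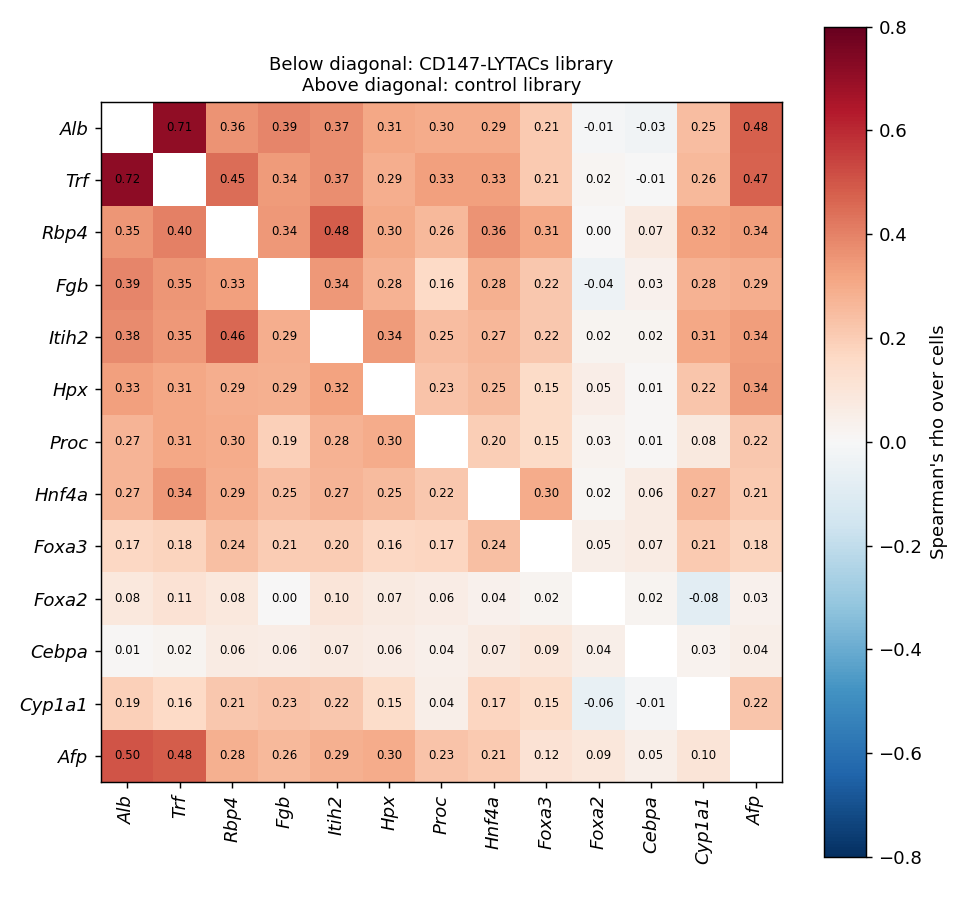
Spearman's rho between pairs of 12 liver genes and Afp over hepatoma cells with at least 20000 UMIs, with the CD147-LYTACs library below the diagonal and the control library above it. Alb with Trf has the darkest red on both sides, at 0.72 and 0.71, and the rows of Foxa2 and Cebpa stay near white.

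As a share of all UMIs, cycling hepatoma cells held more Foxa2 and less Cyp1a1, Fgb, Foxa3, Cebpa and Alb than non-cycling ones. Cells were called cycling where 15 mitotic genes summed to at least 500 CPM, which gave 626 of 2297 CD147-LYTACs cells (27.3%) and 489 of 1995 control cells (24.5%), with 266 and 230 cells near the limit, between 250 and 1000. Cycling cells were deeper, with medians of 55730 UMIs in the CD147-LYTACs library and 62541 in the control library, against 37211 and 42245 in non-cycling cells. Per 100 cells, Alb had 6302 UMIs in cycling and 4568 in non-cycling CD147-LYTACs cells, and 6254 and 5053 in control cells. Fgb, Foxa3 and Cebpa likewise had more UMIs per cell in cycling cells of both libraries. Cyp1a1 had fewer, at 300 and 423 per 100 CD147-LYTACs cells and 291 and 459 per 100 control cells. UMI sums of both states in both libraries were compared with edgeR's quasi-likelihood test, with the library as a block and Benjamini-Hochberg adjustment over 15242 genes, so that the 2 libraries are the replicates. Only 21 of the 34 genes reached the required 50 UMIs. Of these 21, 2 passed as higher and 7 as lower in cycling cells, against a background of 26.0% of all genes higher and 23.8% lower. How these shares differ from the background was not tested. The median log2 fold of the 21 was -0.09, and that of all genes tested was -0.00.

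Foxa2, a pioneer factor that opens chromatin, was at 53.6 CPM in cycling and 31.6 in non-cycling cells of the CD147-LYTACs library, and at 52.8 in cycling and 36.0 in non-cycling cells of the control library. Both cycling sums exceeded both non-cycling sums. The log2 fold was 0.64 ± 0.05 (SE, 2 libraries, edgeR adjusted p = 4.26e-07), and it lay between 0.53 and 0.77 in every alternative run. Its relative Foxa3 moved the other way, at 59.3 in cycling and 70.5 in non-cycling CD147-LYTACs cells and at 55.0 and 73.8 in control cells, a log2 fold of -0.35 ± 0.05 (edgeR adjusted p = 3.26e-05). Cebpa, whose product can restrain cell division, was at 12.0 in cycling and 15.1 in non-cycling CD147-LYTACs cells and at 11.3 and 13.8 in control cells (log2 fold -0.33 ± 0.07, edgeR adjusted p = 0.00255). DESeq2 did not call Cebpa (adjusted p = 0.126). Hnf4a, at 46.0 and 48.8 in CD147-LYTACs cells and 47.9 and 49.4 in control cells, did not pass (-0.09, edgeR adjusted p = 0.105), though it was called lower without the deepest 10% of barcodes (-0.13, edgeR adjusted p = 0.0415). Nor did Foxa1 (0.25, edgeR adjusted p = 0.197).

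Among secreted genes, Fgb fell in cycling cells, to 105 CPM against 141 in non-cycling CD147-LYTACs cells, and to 79.6 against 98.5 in control cells (log2 fold -0.39 ± 0.04, edgeR adjusted p = 1.63e-06). Alb fell by less, with 1124 in cycling and 1200 in non-cycling CD147-LYTACs cells and 1037 and 1175 in control cells (-0.16 ± 0.04, edgeR adjusted p = 0.00238), and its fold within the CD147-LYTACs library alone was -0.09. Trf rose slightly, with 271 in cycling and 232 in non-cycling CD147-LYTACs cells, and 241 and 233 in control cells (0.12 ± 0.04, edgeR adjusted p = 0.0302). The size of that difference rested on the library, with a log2 fold of 0.23 within CD147-LYTACs and 0.05 within control cells, and the call was lost without the deepest barcodes, with S phase genes added and in DESeq2. Alb and Trf, the closest pair across cells, thus had folds of opposite sign between the states. Rbp4 (-0.06, edgeR adjusted p = 0.23), Itih2 (-0.06, edgeR adjusted p = 0.437), Hpx (0.02, edgeR adjusted p = 0.902) and Proc (-0.07, edgeR adjusted p = 0.588) did not pass.

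Cyp1a1 fell most among the abundant genes, to 53.4 CPM in cycling against 111 in non-cycling CD147-LYTACs cells, and to 48.3 against 107 in control cells. The log2 fold was -1.12 ± 0.04 (edgeR adjusted p = 5.38e-11). Cells thinned to 2000 UMIs showed the same difference in the share of cells with a UMI, at 6.94% (4.98 to 9.36, exact Clopper-Pearson 95% interval) of 562 cycling and 12.8% (11.1 to 14.6) of 1526 non-cycling CD147-LYTACs cells. In the control library the shares were 6.56% (4.44 to 9.29) of 442 cycling and 12.6% (10.9 to 14.5) of 1412 non-cycling cells. Without thinning, the shares were close, at 36.4% and 37.5% in CD147-LYTACs and 37.6% in both states of control cells. Thinning left out 209 CD147-LYTACs and 141 control hepatoma cells.

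The other calls rest on few cells. Hp was lower in cycling cells, with a log2 fold of -2.51 ± 0.72 (edgeR adjusted p = 0.0103), with 57 UMIs in all CD147-LYTACs and 7 in all control hepatoma cells, and the fold within control cells was -0.19. Neutrophil markers summed to 16.0 CPM in cycling and 39.7 in non-cycling CD147-LYTACs cells and to 2.14 and 4.68 in control cells. Without barcodes with over 200 CPM of immune markers, the log2 fold of Hp was -2.73 (edgeR adjusted p = 0.00677). The part of neutrophil transcripts in this fold was not tested. Fgg was lower (edgeR adjusted p = 4.44e-05), with no UMI in cycling cells of either library and 65 of its 110 UMIs in 1 non-cycling cell. A difference of at least 1.5-fold in both libraries was reached by 0 members in the higher direction, against 8.75% of all genes, and in the lower direction by Cyp1a1, against 5.45%. Fgg had 1 UMI in the control library, so no fold can be given for it there, and the share of all genes includes genes with no UMI in 1 of the states. Apoa2, F2, F10, Ambp, Tat and Apob did not pass, with edgeR adjusted p from 0.16 for F10 to 0.645 for Apob, though F10 was called lower with a cycling limit of 1000 CPM (-0.93, edgeR adjusted p = 0.0486).

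**Figure D4:**
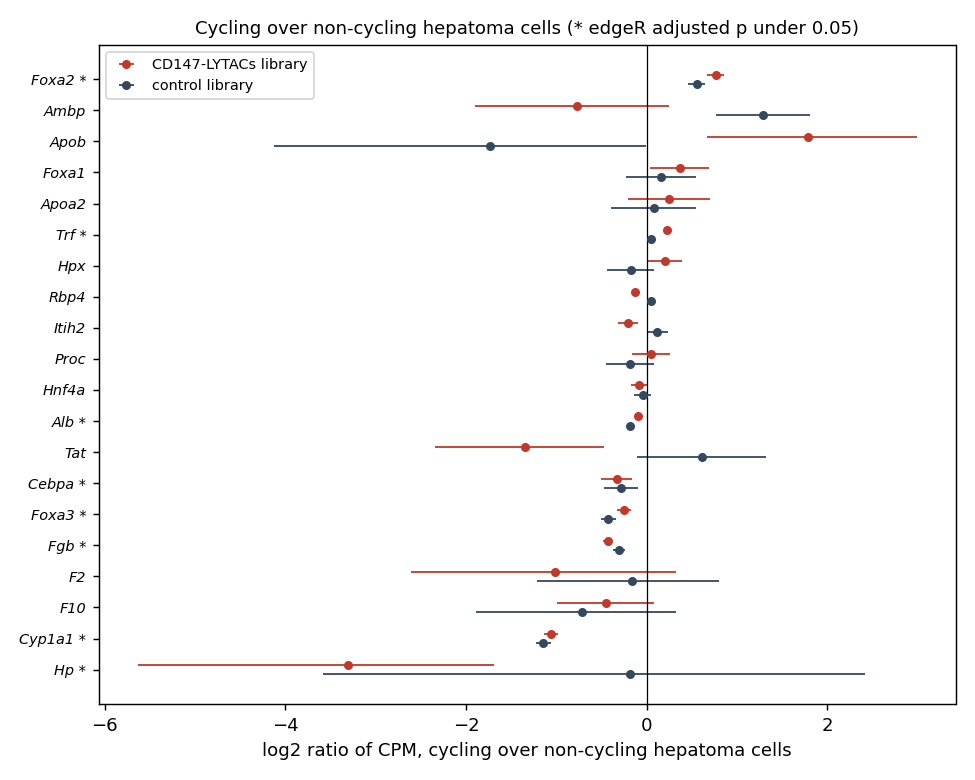
Log2 ratio of CPM, cycling over non-cycling hepatoma cells, for 20 liver genes in the CD147-LYTACs library (red) and the control library (dark blue), with exact 95% intervals for counting error. Asterisks mark an edgeR adjusted p under 0.05 over both libraries, and Fgg is not drawn because it had no UMI in cycling cells. Foxa2 lies above 0 and Cyp1a1 near -1 in both libraries.

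Genes of 3 further liver lists were set beside the members. Among 25 other liver transcription factors, 20 were tested, of which 4 were higher and 4 lower in cycling cells. Among those higher were Zbtb20, a repressor of Afp in the adult liver (0.24 ± 0.03, edgeR adjusted p = 3.32e-05), Zhx2 (0.15) and Nr2f2 (0.14). Among those lower were Cebpd (-1.23), Onecut2 (-0.35) and Cebpb (-0.24). The fold of Cebpd was -1.62 within the CD147-LYTACs and -0.65 within the control library, and that of Cebpb -0.26 and -0.17. Both were far higher in Csf3r-gated immune cells, the neutrophil gate, with Cebpb at 2804 CPM in CD147-LYTACs and 2266 in control cells and Cebpd at 66.1 and 53.0. The part of the neutrophil markers, which were also lower in cycling cells, in these folds was not tested.

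Among 58 other secreted genes, 25 were tested, of which 7 were higher and 5 lower. Of these, F12, which starts contact clotting (1.58), Lcat of cholesterol esterification (1.18), F11 (0.62), Apoc2 (0.57) and complement C3 (0.44) rose, and the copper protein gene Cp (-0.85), Serpinc1 or antithrombin (-0.81), C4b (-0.25) and Selenop (-0.24) fell. Among 40 metabolic genes, 19 were tested, with 4 higher and 6 lower. Gls2 (0.95), Mttp, which loads lipid onto apolipoprotein B (0.75), Acly (0.17) and Abcc2 (0.13) rose, while Arg1 (-1.37), Dgat2 of triglyceride synthesis (-0.82), Glul, or glutamine synthetase (-0.60), Cyp27a1 (-0.39) and Aldh1a1 (-0.28) fell. Arg1 had only 180 UMIs in CD147-LYTACs and 17 in control hepatoma cells, and its fold was -2.06 within the CD147-LYTACs library but 0.97 (-0.61 to 2.51) within the control library. The fold of C3 was 0.08 (-0.08 to 0.25) within the CD147-LYTACs and 0.88 within the control library, so its call rests on the control library.

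Between the libraries, most members differed little. Of the 21 members with at least 50 UMIs, 3 were at least 1.5-fold higher in CD147-LYTACs than in control hepatoma cells with an interval that left out no difference, against 3.14% of all genes, and 2 were lower, against 3.06%. All 5 are scarce: Fgg, Hp and F10, the gene of coagulation factor X, were higher, and Ambp and F2 lower. The median log2 ratio of the 21 was 0.06 and that of all genes tested -0.02.

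Fgb was higher in the CD147-LYTACs library by a log2 ratio of 0.47 (0.43 to 0.51), short of 1.5-fold. It was at 105 CPM in cycling CD147-LYTACs cells against 79.6 in cycling control cells, and at 141 against 98.5 in non-cycling cells. Hpx was higher by 0.56 (0.41 to 0.71), Proc by 0.37 (0.21 to 0.52) and Rbp4 by 0.21 (0.19 to 0.23). For Rbp4 the ratio was 0.10 in cycling and 0.27 in non-cycling cells. The others of the abundant genes were close to equal, as in Alb (0.05, 0.04 to 0.06), Trf (0.06, 0.04 to 0.09), Cyp1a1 (0.04, -0.01 to 0.08), Foxa3 (-0.03), Hnf4a (-0.03) and Foxa2 (-0.07). How much of these ratios lies within the spread between tumours could not be measured with 1 library each.

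The scarce genes called here rested on few UMIs. Fgg came from 8 CD147-LYTACs cells and 1 control cell, and without the top cell of each library it had 45 UMIs in CD147-LYTACs and 0 in control cells. Ambp stood at 45 UMIs in CD147-LYTACs and 131 in control cells, and at 31 and 72 without the top cell of each library. F2 stood at 28 and 45 UMIs, and at 24 and 42 without the top cells. Hp stood at 57 and 7 UMIs, and at 37 and 4 without the top cells. F10 stood at 1.51 CPM (1.28 to 1.77) in CD147-LYTACs and 0.488 (0.357 to 0.651) in control cells. After barcodes with over 200 CPM of immune markers were left out, F10 stood at 0.924 in CD147-LYTACs and 0.363 in control cells. Hp then stood at 0.534 in CD147-LYTACs and 0.0746 in control cells, against 0.577 and 0.0743 with those barcodes. Barcodes with fewer immune transcripts stay in under that limit, so the part of immune transcripts in these ratios was not tested. Over all hepatoma barcodes the neutrophil markers, at 31.3 and 3.88 CPM, were also higher in the CD147-LYTACs library.

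Liver transcripts in immune cells were measured as a gauge of free RNA, that is RNA from broken cells caught with other cells. Immune cells had at least 2 Ptprc UMIs and little keratin, and were gated by Cd3 genes of T cells (2505 CD147-LYTACs and 3389 control cells), by Csf3r and Cxcr2 of neutrophils (288 and 58) or by Csf1r, Adgre1 and C1qa of monocytes and macrophages (294 and 144). Median depths were 6739 and 6633, 3363 and 3299, and 6219 and 7551 UMIs. In Cd3-gated cells Krt8, which T cells should lack, was at 1.08% of its hepatoma level in the CD147-LYTACs and 1.12% in the control library. Alb was at 0.912% and 0.757%, Rbp4 at 0.937% and 0.80%, Fgb at 0.644% and 0.796%, Foxa3 at 0.759% and 0.724% and Hnf4a at 1.34% and 1.15%. These members thus held about the share that the keratin held. Both hepatoma and immune cells were chosen by their Krt8 and Krt18 counts, so the keratin share was in part set by that choice. After thinning, 2.38% of Cd3-gated CD147-LYTACs and 2.14% of control cells held an Alb UMI (8.38% and 6.79% unthinned), against 67.0% and 67.2% of hepatoma cells (87.2% and 91.1% unthinned).

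**Figure D5:**
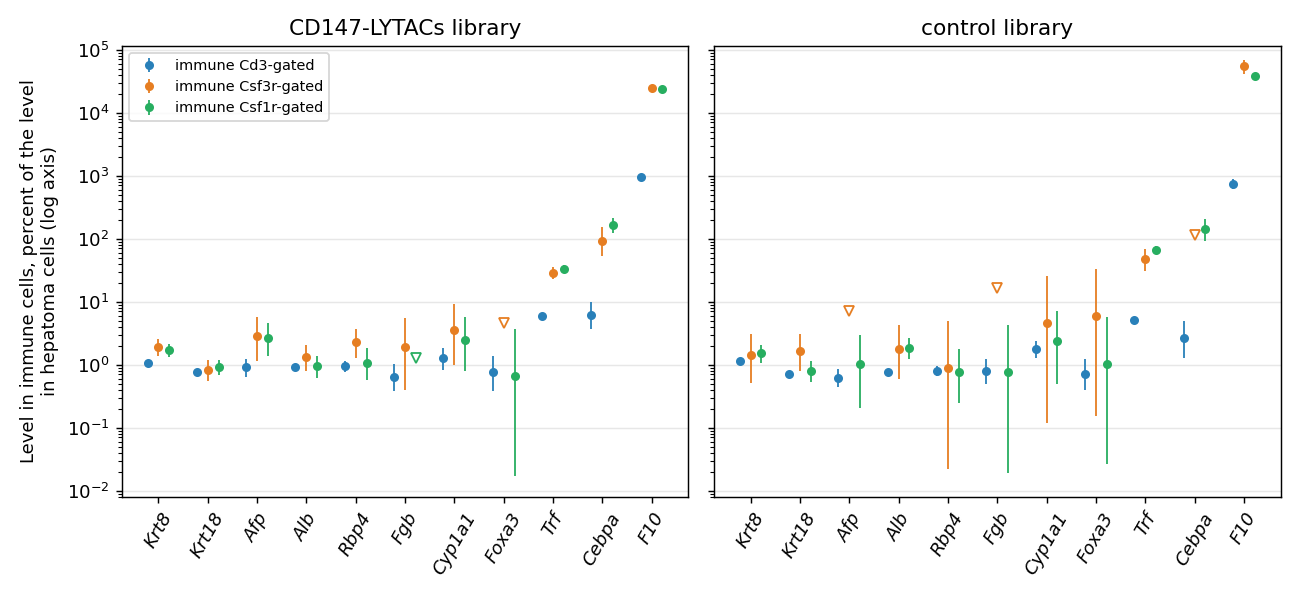
Level of 8 liver genes and of Krt8, Krt18 and Afp in immune cells, as a percentage of the level in hepatoma cells of the same library, on a log axis, for the CD147-LYTACs library (left) and the control library (right). Points are gates with 95% intervals for counting error, and open triangles mark the upper limit where a gate had no UMI. Krt8 and Krt18 also served to choose the hepatoma and immune cells, which in part sets their share. Alb and Rbp4 lie with the keratins, near 1%, and Trf, Cebpa and F10 lie above them, except that Cebpa had no UMI in Csf3r-gated control cells.

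Trf, Cebpa, F10 and Hp did not share this low level. Scarce members such as Apoa2, Hamp, F2 and Apoa1 also lay above it in Cd3-gated cells, on few UMIs. Apoa2 had 20 UMIs there in CD147-LYTACs and 16 in control cells, Hamp 15 and 8, F2 5 and 7 and Apoa1 6 and 6. In Cd3-gated cells Trf was already at 5.85% of its hepatoma level in the CD147-LYTACs and 5.16% in the control library. In Csf1r-gated cells Trf reached 80.3 CPM in the CD147-LYTACs library and 156 in the control library, and Cebpa reached 23.0 and 18.4, above its hepatoma levels of 14.0 and 13. F10 was at 364 and 187 CPM in Csf1r-gated cells and at 367 and 265 in Csf3r-gated cells, against 1.51 and 0.488 in hepatoma cells. Hp was at 210 and 342 CPM in Csf3r-gated cells and 34 and 11.3 CPM in Csf1r-gated cells. Counted as molecules per 100 cells, Alb had 9.30 in Cd3-gated, 6.60 in Csf3r-gated and 8.50 in Csf1r-gated CD147-LYTACs cells, and 7.20, 8.62 and 20.1 in the same gates of control cells. F10 had 12.3, 156 and 281 in CD147-LYTACs and 3.04, 112 and 184 in control cells, so that its counts differed between gates far more than those of Alb.

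The gates were compared by edgeR over 12963 genes, with the library as a block and 6 sums. Of 7 members tested, 6 were higher in Csf3r-gated than in Cd3-gated cells, against 20.5% of all genes higher and 23.6% lower, and 0 were lower. They were Hp (9.86 ± 0.42, edgeR adjusted p = 7.49e-52), F10 (6.20 ± 0.37), Cebpa (4.82 ± 0.72), Trf (3.55 ± 0.31), Rbp4 (2.03 ± 0.65) and Alb (1.74 ± 0.48), while Cyp1a1 did not pass (edgeR adjusted p = 0.0711). At an unadjusted p under 0.05 edgeR had 7 higher and 0 lower, and DESeq2 called 6 higher and 0 lower. Hp and Cebpa, with 16 and 19 UMIs in Cd3-gated CD147-LYTACs cells and 9 and 10 in control cells, reached the required 50 UMIs only through the gates where they are high, so nothing is read from the counts of members called. The call of Cebpa rests on 16 UMIs of the CD147-LYTACs library, since the control library had 0 in Csf3r-gated cells. Krt8 was also called higher (1.59), and the median log2 fold of all genes was -0.45 with TMM scaling and -1.38 with library totals. With library totals Alb (0.83, edgeR adjusted p = 0.141) and Rbp4 (1.06, edgeR adjusted p = 0.148) lost the call and the split of all genes was 1695 higher and 6074 lower, against 2662 and 3055 with TMM. Hp, F10, Cebpa and Trf kept theirs.

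In Csf1r-gated against Cd3-gated cells, 5 of the 7 were higher and 0 lower by edgeR, as at an unadjusted p under 0.05, against 22.1% of all genes higher and 18.8% lower. Hp (5.81 ± 0.41), F10 (5.52 ± 0.35), Cebpa (5.49 ± 0.50) and Trf (3.47 ± 0.29, edgeR adjusted p = 6.35e-23) were called with both scalings. Alb (1.04 ± 0.38, edgeR adjusted p = 0.0204) lost its call with library totals, in DESeq2, without a filter on low counts and in barcodes free of keratin UMIs. DESeq2 called 4 higher and 0 lower. Here the median of all genes was -0.11 with TMM and -0.48 with library totals, and the split of all genes was 2861 higher and 2439 lower with TMM, against 2233 and 4169.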

How the data were processed

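Single-cell RNA was measured in 1 CD147-LYTACs and 1 control library on the 10x Genomics Chromium platform. The authors deposited raw UMI counts per gene and barcode, which were used as counts without normalization. The submitters' processing notes name Cell Ranger 3.0.2 and mm10, whereas the version is 7.1.0 per the file headers. No annotation release is named in them. A filter of at least 500 UMIs, at least 300 genes and no more than 15% mitochondrial UMIs kept 8176 of 9219 CD147-LYTACs and 7091 of 8150 control barcodes, and those with both keratin and Ptprc (220 and 162) were left out. No doublet caller was run. Hepatoma sums held 98717854 and 94247532 UMIs.

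The members and gene lists were chosen with earlier results of these data known. Members with at least 50 UMIs over both libraries are given with values. From each further list, up to 5 genes called in each direction with the greatest folds are named, and some of them are not reported here. Counts summed per library and cell group were tested with edgeR 4.0.16 in R 4.3.3 (TMM, quasi-likelihood, adjusted p under 0.05), with DESeq2 1.42.0 as an alternative. The fits were also run on simulated data, from which nothing is read here. As both states come from each library, the library was a block, which leaves 1 residual degree of freedom among 4 sums, and the spread was moderated across genes. The p-values thus rest on how far the folds differed between the 2 libraries, not on a spread between mice. The labels do not say that the libraries came from several mice, so that difference may be technical. As the libraries also differ in treatment, an effect of treatment on the folds cannot be told apart from it. Ratios between libraries have exact conditional binomial 95% intervals, levels exact Poisson and shares exact Clopper-Pearson ones, made in Python 3.11.15 with scipy 1.17.1. Correlations used Spearman's rho. Positions came from GENCODE M21 and promoters from RefSeq (GRCm38.p6).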

Additional observations from a re-analysis of the deposited data

Results flagged for a closer look

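In 3 members the fold between cycling and non-cycling cells pointed in opposite directions in the libraries, each with a counting interval that left out 0. The difference between the libraries was not tested, since each group had 1 library. Itih2 had a log2 ratio of cycling over non-cycling cells of -0.20 in the CD147-LYTACs and 0.12 in the control library. Rbp4 had -0.12 and 0.048. Apob had 1.79 and -1.74, on 32 UMIs from 12 CD147-LYTACs cells and 25 UMIs from 10 control cells. In each library 1 cell held 10 of these UMIs, and the control interval reached -0.004. The counting intervals do not allow for UMIs that come from the same cell.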

How the results depend on the processing

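Between the libraries, 1 member rather than 2 was called lower in cycling cells, in non-cycling cells, as a mean over cells, with the stricter hepatoma gate, without barcodes with immune transcripts and without the deepest 10% of barcodes. Without the top cell of each member, an alternative chosen after seeing the data, 1 rather than 3 was called higher. Fgg, with 45 and 0 UMIs left, and Hp, with 37 and 4, then lay under the required 50 UMIs and were not compared. Between cycling states, 1 member rather than 2 was called higher without the deepest 10% of barcodes, with S phase genes added, in DESeq2 and with no replicate block. Without the library block the count called lower was 2 rather than 7: Cyp1a1 and Foxa3. The adjusted p was then 0.213 for Fgb, 0.18 for Alb, 0.0538 for Cebpa, 0.331 for Trf, 0.191 for Hp and 0.152 for Fgg. DESeq2 gave no adjusted p for F2, Fgg, Hp and Apob, and called 4 of the others lower. The counts over all genes, 3956 higher and 3627 lower, were 2253 and 1760 in DESeq2 and 2265 and 1462 without the block.

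The sign of Hpx turned to -0.0094 without barcodes with immune transcripts and -0.011 in DESeq2, -0.10 without the deepest 10% and -0.12 with a cycling limit of 1000 CPM. Without the deepest 10%, Ambp turned to -0.65 and Proc to 0.012. Rbp4 became lower there (-0.23, edgeR adjusted p = 1.00e-04), with a limit of 250 (-0.11), by Mki67 and Top2a (-0.11) and with S phase genes (-0.14). Hp lost its call without the deepest 10% (edgeR adjusted p = 0.0547) and by Mki67 and Top2a (0.111). The cause of these changes was not tested. Within 1 library the folds have no test and are given with the results. The 13 members with under 50 UMIs were not tested.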

Other observations

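Between the libraries, few genes of the further liver lists differed by 1.5-fold or more. Cebpd, a C/EBP gene of the acute phase, was at 10.8 CPM in CD147-LYTACs and 5.18 in control hepatoma cells, a log2 ratio of 1.07 (0.91 to 1.22). It was at 66.1 and 53.0 in Csf3r-gated cells. Arg1, the urea cycle enzyme that some macrophages also make, was at 1.82 and 0.18 (3.34, 2.62 to 4.15), and it was at 822 and 148 in Csf1r-gated cells. Hsd11b1, which reactivates glucocorticoids, was at 0.425 and 0.0849 (2.33), against 345 and 293 in Csf3r-gated cells. The part of free RNA or of mixed barcodes in these ratios was not tested. Apoh, a phospholipid-binding plasma protein (-1.14), and F12 (-0.83) were lower in the CD147-LYTACs library.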
